A study of Bos taurus with 16 samples.

Results

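The diet of pregnant Hanwoo cows was compared in the round muscle, a muscle of the hind limb, of their newborn calves. All round libraries of the series were used, 8 of its 16 samples, with 4 control and 4 treated calves. They were taken by the tissue and treatment given in the sample labels. Control calves were born to cows nominally fed 100% of the nutritional requirement, and treated calves to cows nominally fed 150% of it in the middle and late months of pregnancy. Per the study's methods the control intake was itself set above the cited feeding standard, so the percentages are not measured shares of requirement. Hanwoo is a Korean beef breed, and per the study's methods the calves of both groups were males sampled after birth. There were 8 cows, 4 on each diet, kept at 1 institute, the calves themselves were not treated, and the extra feed was both concentrate and rice straw, so that energy and protein cannot be told apart. The other 8 samples are the sirloin muscle, numbered in the same way. Replicates below carry the numbers of the labels, 1 to 4 in each group, and a number shared by a control and a treated calf does not make them a pair.

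Skeletal muscle fibres of cattle are laid down before birth, and the fibres of the newborn still adapt their contractile proteins and their metabolism to load, nerve activity and nutrients. Mechanical load reaches the nucleus through actin and 2 well-known transcriptional routes, SRF with its actin-sensing cofactors and YAP with TEAD factors, whose targets include cytoskeletal and matrix genes. Nerve and calcium activity switch on immediate early genes such as the FOS, JUN, EGR and NR4A families, and amino acid shortage or unfolded protein switches on ATF4 and its targets.

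The total count per round library lay between 44473011 and 72446933, with between 17060 and 18700 genes having at least 1 count. The 10 most abundant genes took 17.3% to 22.1% of a library and the mitochondrial genes 8.06% to 13.8%, and the 2 groups overlapped in each of these measures. Control replicate 2 was the deepest library and had the most genes with a count. The defining genes of skeletal muscle fibres were high in every library, with ACTA1, skeletal muscle actin, at 33531, 25426, 23019 and 25868 CPM in control and 39851, 36472, 21059 and 26029 CPM in treated replicates 1 to 4. CPM is the count per 1000000 counts of a library after TMM normalization, a scaling for library composition.

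Of 21677 genes with at least 1 count in any round library, 4 (0.0185%) passed an adjusted p of 0.05 in edgeR's quasi-likelihood test with Benjamini-Hochberg adjustment. 3 of them were lower (0.0138% of the genes tested) and 1 higher (0.00461%) in treated calves. A further tool, DESeq2, called 46 genes at the same threshold (0.268% of the 17170 genes it gave an adjusted p), among them all 4 of edgeR. The DESeq2 calls were 38 lower (0.221%) and 8 higher (0.0466%) in treated calves. Below, a gene is said to have risen or fallen where edgeR or, where named, DESeq2 called it. The p-values measure the spread between these calves.

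THBS1 (gene ID 281530), or thrombospondin 1, is a secreted matrix protein that binds cells and activates latent TGF-beta. It was at 165, 468, 243 and 327 CPM in control replicates 1 to 4 and at 22.9, 45.6, 24.3 and 29.2 CPM in treated replicates 1 to 4. The lowest control calf lay above the highest treated calf by more than the whole range of the treated group. The gene fell by 3.30 on the log2 scale (standard error, SE, 0.372, adjusted p = 0.0266 by edgeR).

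FOSL1 (gene ID 531389), or FRA1, is a subunit of the AP-1 transcription factor. Its levels were 12.2, 8.72, 22.02 and 7.15 CPM in control and 1.02, 0.204, 0.683 and 0.289 CPM in treated replicates 1 to 4, from 517, 687, 929 and 333 counts and 63, 10, 48 and 14 counts. Every control calf was thus at least several-fold above every treated calf. FOSL1 fell by 4.49 on the log2 scale (SE 0.572, adjusted p = 0.0367 by edgeR).

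ENAH (gene ID 513095) codes for a member of the ENA/VASP proteins, which lengthen actin filaments at adhesion sites. Control replicates 1 to 4 were at 599, 615, 722 and 775 CPM and treated replicates 1 to 4 at 123, 162, 150.3 and 60.2 CPM. The control calves lay close together, and treated replicate 4 was the lowest of all. ENAH fell by 2.45 on the log2 scale (SE 0.32, adjusted p = 0.0367 by edgeR).

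The gene that rose, LOC781412 (gene ID 781412), is annotated as a pseudogene, whose reads may be shared with a copy elsewhere, so its level is uncertain. It had 1, 2, 3 and 1 counts in control and 404, 69, 139 and 81 counts in treated replicates 1 to 4. These are 0.0235, 0.0254, 0.0711 and 0.0215 CPM and 6.53, 1.405, 1.98 and 1.67 CPM, with treated replicate 1 well above the other treated calves. The log2 fold change was 6.31 (SE 0.746, adjusted p = 0.0266 by edgeR).

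Leaving out 1 library at a time left between 0 and 3 edgeR calls. None was left when control replicate 4 was removed (by unadjusted p under 0.05, 689 genes, and 26 DESeq2 calls) or treated replicate 3 was (889 genes, and 54 DESeq2 calls). 1 gene was called without control replicate 1 and 1 without control replicate 2, 2 genes without treated replicate 2, and 3 without each of the others. THBS1 and LOC781412 were each called in 4 of the 8 fits, and FOSL1 and ENAH in 1 each. The log2 fold change of THBS1 stayed between -3.57 and -3.05, that of FOSL1 between -4.96 and -4.07, that of ENAH between -2.63 and -2.26 and that of LOC781412 between 5.53 and 6.81. Their adjusted p by edgeR depended more on the library left out, and ranged from 0.0172 to 0.102 for THBS1 and from 0.0387 to 0.212 for ENAH. DESeq2 called all 4 genes in each of the 8 fits.

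**Figure D1:**
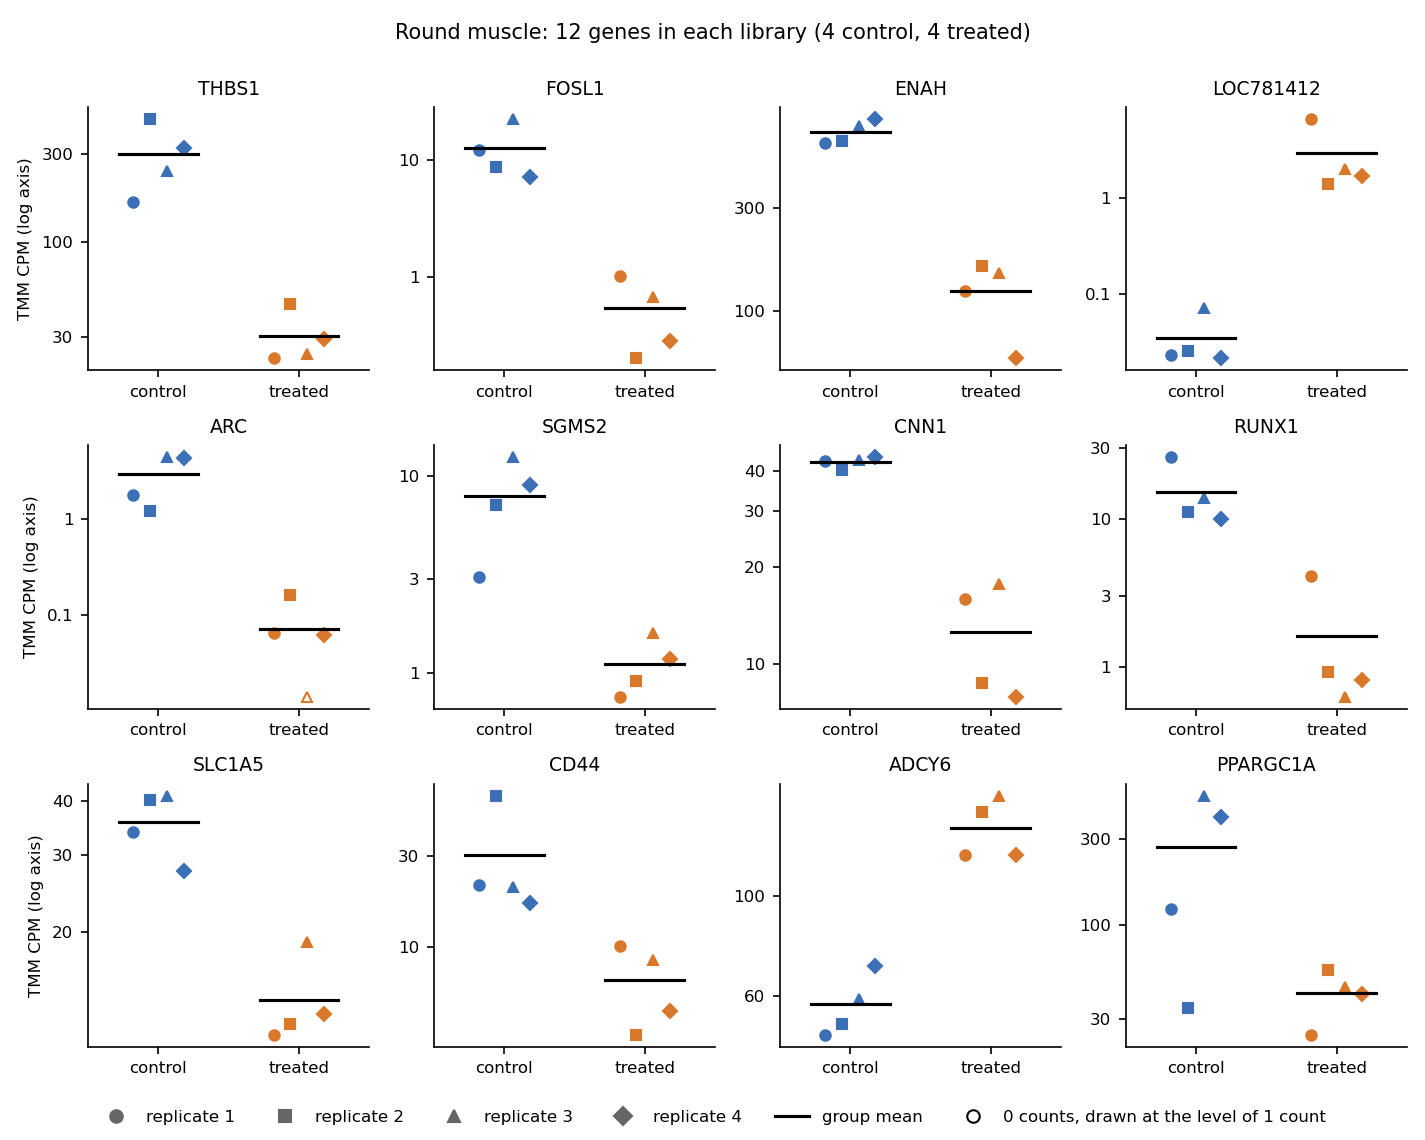
Each panel shows 1 gene, with TMM-normalized CPM on a log axis for the 4 control (blue) and 4 treated (orange) round libraries; the marker shape gives the replicate number, black lines are group means and an open marker is a library with 0 counts. In 11 of the 12 panels no treated library overlaps a control library, and in PPARGC1A control replicate 2 lies among the treated libraries. Most of these genes were named by a rule that asked for no overlap, so the count of panels follows from that choice. Of all 21677 tested genes, 394 (1.82%) had no overlap.

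The number of DESeq2 calls moved from 46 to between 26 and 72 when 1 library was left out. It was 72 without control replicate 1 and 71 without control replicate 2, and 31 without control replicate 3. Of the 38 genes that DESeq2 called lower, 33 had no overlap of the groups, and 15 were called in all 8 fits with 1 library left out. Among all genes tested, 394 (1.82%) had no overlap, 215 lower (0.992%) and 179 higher (0.826%) in treated calves. This split depended on the scale, since the deposited TPM gave 378 genes, with 123 lower and 255 higher. Control replicate 3 was the highest control calf in 20 of the 38 lower genes, and control replicates 1 and 2 were the lowest in 13 and 12 of them. The call was lost for 18 of the 38 without control replicate 3, for 18 without control replicate 4, for 13 without treated replicate 1 and for 8 to 12 without each of the other libraries.

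**Figure D2:**
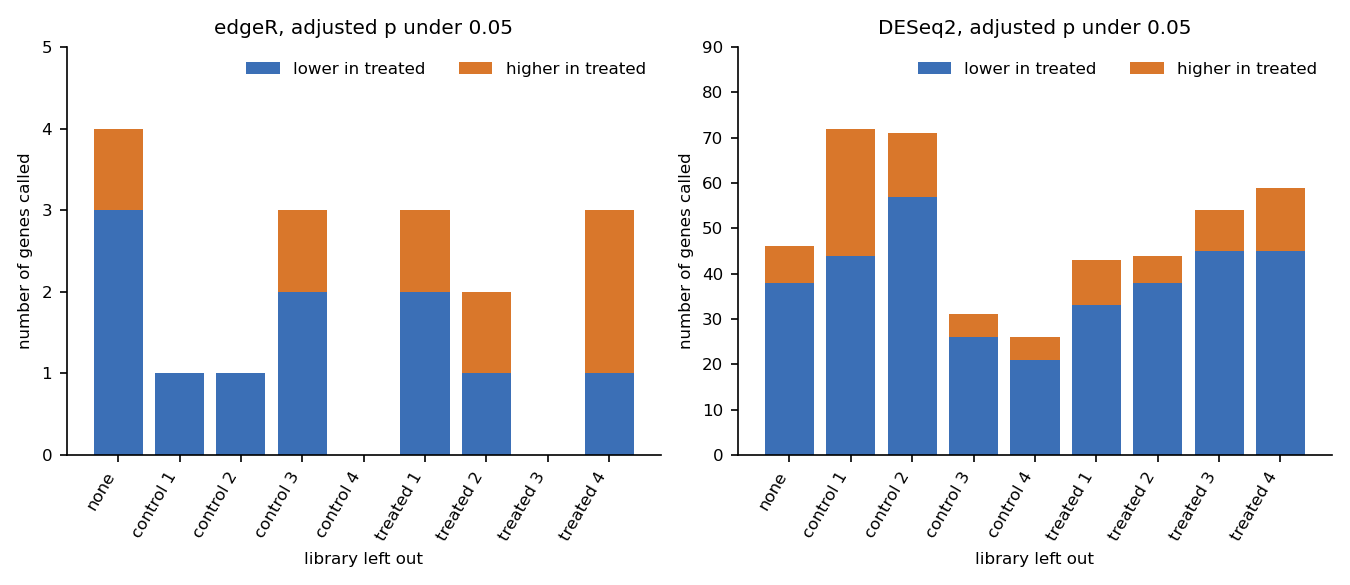
Bars give the number of genes called at an adjusted p under 0.05 by edgeR (left) and DESeq2 (right), from all 8 round libraries (none) and with each library left out in turn; blue is lower and orange higher in treated calves. edgeR calls 4 genes from all libraries and 0 to 3 from 7, while DESeq2 calls 46 and between 26 and 72.

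An activity-linked gene and a transcription factor were among the genes that fell by DESeq2. ARC, an activity-induced gene best known from neurons, had 77, 96, 186 and 203 counts in control and 4, 8, 0 and 3 counts in treated replicates 1 to 4, which are 1.81, 1.22, 4.41 and 4.36 CPM and 0.0647, 0.163, 0 and 0.062 CPM. Treated replicate 3 had none. The log2 fold change was -5.36 (SE 0.844), with an adjusted p of 0.157 by edgeR and 2.68e-10 by DESeq2.

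RUNX1, a Runt family factor that denervated muscle raises, was at 26.1, 11.2, 13.9 and 10.04 CPM in control and 4.12, 0.916, 0.626 and 0.806 CPM in treated replicates 1 to 4. Treated replicate 1 stood apart from the other treated calves, though below every control calf. Its log2 fold change was -3.23 (SE 0.617), with an adjusted p of 0.361 by edgeR and 3.41e-05 by DESeq2, and it was -4.29 to -2.85 with 1 library left out.

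CNN1 and SGMS2 fell by DESeq2. CNN1, calponin 1, an actin-binding protein best known as a marker of smooth muscle, was at 43.02, 40.1, 43.1 and 44.01 CPM in control and 15.9, 8.69, 17.7 and 7.89 CPM in treated replicates 1 to 4. The control calves were nearly equal, and treated replicates 2 and 4 lay below treated replicates 1 and 3. CNN1 had a log2 fold change of -1.76 (SE 0.291), with an adjusted p of 0.196 by edgeR and 4.37e-05 by DESeq2. SGMS2, which makes sphingomyelin at the plasma membrane, was at 3.08, 7.18, 12.5 and 9.08 CPM in control and 0.76, 0.916, 1.59 and 1.18 CPM in treated replicates 1 to 4. Control replicate 1 was the control calf nearest to the treated ones. Its log2 fold change was -2.84 (SE 0.45), with an adjusted p of 0.157 by edgeR and 4.65e-07 by DESeq2.

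EMP1, PVR, TIAM2 and GIPC2 fell by DESeq2 as well. EMP1, a membrane protein of the PMP22 family, ranged from 125 to 268 CPM in control and from 49.1 to 82.6 CPM in treated calves. PVR, an adhesion protein of the nectin-like group, ranged from 73.7 to 182 CPM and from 21.3 to 55.4 CPM. TIAM2, an activator of the GTPase RAC1, ranged from 14.5 to 27.4 CPM and from 6.03 to 9.44 CPM. In each the lowest control calf lay above the highest treated calf, and the log2 fold changes were -1.53, -1.91 and -1.36. GIPC2, a PDZ protein, was at 3.62, 20.5, 23.9 and 5.71 CPM in control and 3.19, 1.02, 1.49 and 0.868 CPM in treated replicates 1 to 4, a log2 fold change of -3.03. Its control replicate 1 and treated replicate 1 were nearly equal, while control replicates 2 and 3 were far above the rest. The DESeq2 adjusted p of these 4 genes lay between 0.000411 and 0.00608, and that of edgeR between 0.361 and 0.591. PVR lost its DESeq2 call without control replicate 4, and TIAM2 without control replicate 1 or control replicate 3.

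SLC1A5, RNF115 and SPAG1 fell by DESeq2 and not by edgeR. SLC1A5, a carrier of glutamine and other neutral amino acids, was at 33.96, 40.2, 41.2 and 27.6 CPM in control and 11.6, 12.2, 18.99 and 12.9 CPM in treated replicates 1 to 4, and treated replicate 3 was the treated calf nearest to the controls. Its log2 fold change was -1.36 (SE 0.247), with an adjusted p of 0.286 by edgeR and 0.000411 by DESeq2. RNF115, a ubiquitin ligase, was at 86.5, 69.1, 127 and 82.8 CPM and 33.6, 27.2, 40.6 and 25.04 CPM, a log2 fold change of -1.53 (SE 0.261), with an adjusted p of 0.197 by edgeR and 0.000143 by DESeq2. The lowest control calf was again well above the highest treated calf. SPAG1, needed to assemble the dynein arms of cilia, was at 3.84, 4.89, 2.39 and 4.36 CPM and 0.582, 1.18, 1.45 and 0.827 CPM without overlap, and had a log2 fold change of -1.93, with a DESeq2 adjusted p of 0.000986.

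LOC784052, a gene like that of a protein of the small ribosomal subunit (RPS26), was high in 3 of the 4 control calves. Such genes have near-identical copies that may share its reads, so its level is uncertain. It had 234, 303, 2 and 189 counts in control and 2, 1, 3 and 2 counts in treated replicates 1 to 4. Control replicate 3 was thus as low as the treated calves, and in CPM the groups were apart only by the scaling to depth, at 0.0474 CPM against a highest treated value of 0.0427 CPM. The log2 fold change was -6.51 (SE 1.095), with an adjusted p of 0.197 by edgeR and 2.82e-08 by DESeq2.

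Among the genes that DESeq2 called higher, ADCY6 was called whichever library was left out. It codes for an adenylyl cyclase, the enzyme class that makes cAMP. ADCY6 was at 49.2, 51.9, 59.1 and 69.9 CPM in control and 123, 153, 167 and 123 CPM in treated replicates 1 to 4, and the highest control calf lay far below the lowest treated calf. Its log2 fold change was 1.30 (SE 0.224), with an adjusted p of 0.197 by edgeR and 0.000128 by DESeq2.

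Other genes called higher were low or uneven. CCNB2, a cyclin of mitosis, had 0 counts in every control library and 9, 11, 16 and 11 counts in treated replicates 1 to 4, at least 14.4-fold higher against a floor of 3 counts over that group. Its DESeq2 adjusted p was 0.0378, and none of the 8 fits with 1 library left out called it. LOC617141 had 0, 9, 4 and 0 counts in control and 60, 148, 311 and 7 counts in treated replicates 1 to 4 (DESeq2 adjusted p = 0.000235), so treated replicate 4 was close to control replicate 2, and the call was lost without control replicate 2 or control replicate 3. LOC104970902, a long non-coding RNA, had 88, 88, 8 and 20 and 139, 2394, 537 and 326 counts (DESeq2 adjusted p = 0.0498). Treated replicate 2 held most of its treated counts, and its log2 fold change of 4.1 was 2.53 without that library, where the call was lost, as in 6 more of the 8 fits. MRO was at 1.41, 1.599, 1.02 and 1.24 CPM in control and 4.01, 6.78, 2.77 and 2.33 CPM in treated replicates 1 to 4, and its log2 fold change was 1.59 (DESeq2 adjusted p = 0.0474, lost in 5 of the 8 fits).

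**Figure D3:**
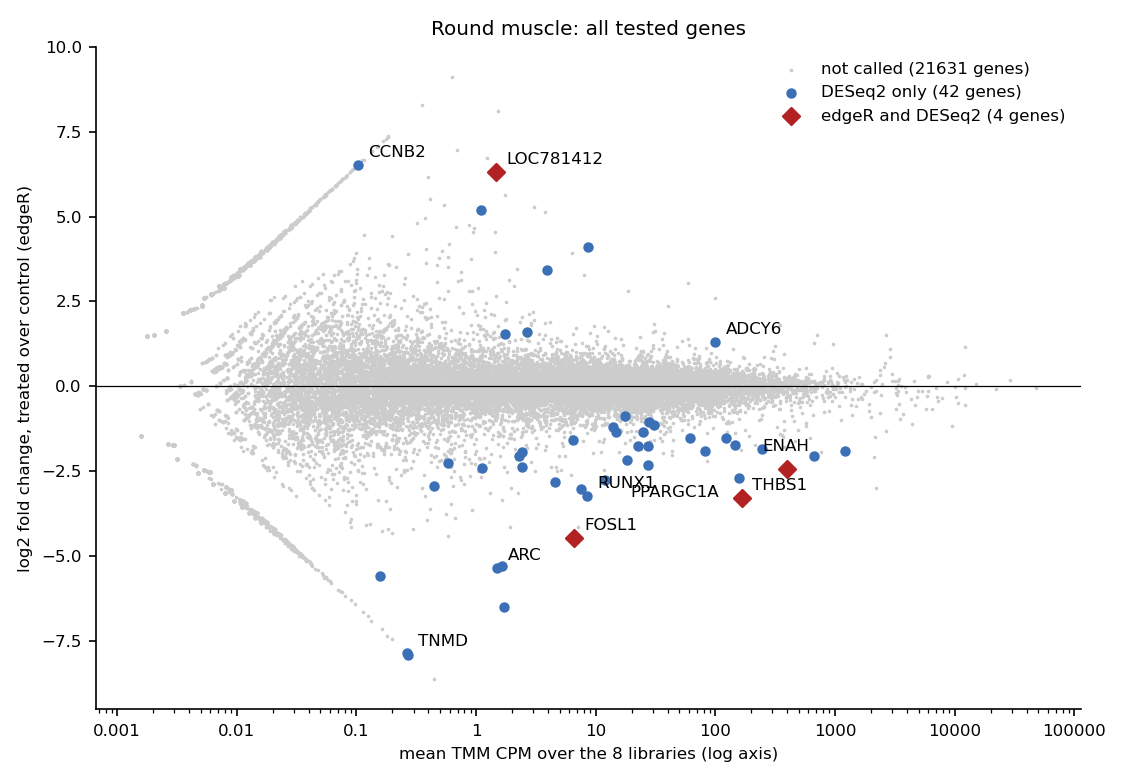
Each point is 1 of the 21677 tested genes, with its mean CPM over the 8 libraries on a log x axis and its log2 fold change (treated over control, edgeR) on the y axis; red diamonds were called by edgeR and DESeq2, blue points by DESeq2 alone. Of the 46 called genes 38 lie below 0, and the curved arms at low CPM include genes with 0 counts in every library of 1 group.

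The groups overlapped in 6 of the DESeq2 calls, and each of these was lost in 3 or more of the 8 fits with 1 library left out. PPARGC1A, the coactivator that drives mitochondrial and oxidative genes, was at 122, 34.2, 527 and 403 CPM in control and 24.3, 55.7, 44.7 and 41.4 CPM in treated replicates 1 to 4. Control replicates 3 and 4 were far above all others, control replicate 1 lay between, and control replicate 2 was below 3 of the 4 treated calves. The log2 fold change was -2.71 (SE 0.665, adjusted p = 0.864 by edgeR and 0.00735 by DESeq2), and the DESeq2 call was lost without control replicate 3, control replicate 4 or treated replicate 1.

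ASB5, an adaptor of ubiquitin ligases found mainly in muscle, was at 1201, 236, 1414 and 1506 CPM in control and 165, 407, 289.6 and 177 CPM in treated replicates 1 to 4. NUDT4, a hydrolase of inositol pyrophosphates, was at 364, 135, 584 and 456 CPM and 50.2, 157, 144 and 70.9 CPM. JUND, an AP-1 subunit that can pair with FOSL1, was at 232, 92.4, 386 and 193 CPM and 42.8, 41.998, 99.1 and 86.9 CPM. In all 3 control replicate 2 was the lowest control calf and lay within the range of the treated calves, as in PPARGC1A. Their log2 fold changes were -2.07, -1.87 and -1.74, with DESeq2 adjusted p of 0.0228, 0.0414 and 0.044. Each lost the DESeq2 call without control replicate 1, without control replicate 3, without control replicate 4 and without treated replicate 1, and besides in 1 further fit.

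LOC112446708, a long non-coding RNA, had 25, 0, 38 and 29 counts in control and 0 in all treated libraries, at least 40.4-fold lower when 3 counts over the treated group are taken as the floor (DESeq2 adjusted p = 0.00655, lost without control replicate 1, 3 or 4). The gene with ID 112446423, for which no symbol was matched, had 53, 40, 3 and 40 counts in control and 453, 114, 51 and 886 counts in treated replicates 1 to 4. Treated replicate 3 lay within the control range, and treated replicates 1 and 4 held most of the counts (log2 fold change 3.42, DESeq2 adjusted p = 0.0206).

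Groups of genes were then described by the number of members at an unadjusted p under 0.05, beside the same share over all tested genes, 956 of 21677 (4.41%), with 539 lower (2.49%) and 417 higher (1.92%) in treated calves. The lists hold more abundant genes than the whole table, and among the 12283 genes with a mean of at least 1 CPM the share was 4.66%. The median log2 fold change of all tested genes was 0.0234. The lists were chosen with results of these data known and include genes that earlier results had named, so that their counts are a description.

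Of 20 genes that respond to SRF and YAP, 16 had a log2 fold change below 0. Of these 9 were lower and none higher at an unadjusted p under 0.05, and the median log2 fold change was -0.53. Besides THBS1 they included ANKRD1, NEXN, XIRP1, ABRA, TPM4, FLNC and XIRP2, of which NEXN, XIRP1, XIRP2 and FLNC code for proteins of the Z-disc or its links to the membrane. The summed level of the list was 23795, 26794, 43631 and 28682 CPM in control and 17438, 16088, 15966 and 7508 CPM in treated replicates 1 to 4, with no overlap. The summed levels of the ENA/VASP list and of the sphingomyelin and ceramide list did not overlap either, by narrow margins, and those of the other lists did. The ENA/VASP sum was 2503 CPM in control replicate 2 and 2495 CPM in treated replicate 2. ENAH alone made up 615 and 162 CPM of these, so that separation rested on ENAH. The lowest control and highest treated sums of the sphingomyelin and ceramide list were 171 and 167 CPM. Of the 20 SRF and YAP members themselves, 2 were lower without overlap, beside 0.992% of all tested genes. With 1 library left out, 7 to 9 members were lower, and the median lay between -0.74 and -0.39.

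ANKRD1, a titin-binding protein that stretch and injury raise, was at 1554, 991, 7711 and 5356 CPM in control and 455, 1215, 131 and 147 CPM in treated replicates 1 to 4. Control replicate 2 lay below treated replicate 2, so the groups overlapped. Its log2 fold change was -3.00 (SE 0.819, unadjusted p = 0.00333, adjusted p = 0.864 by edgeR). XIRP1, an actin-binding repair protein, was at 5002, 702, 4836 and 3207 CPM and 466, 1092, 1269 and 402 CPM, where again control replicate 2 was the exception. NEXN, an actin-binding Z-disc protein, was at 984, 1344, 1939 and 1719.6 CPM and 673, 817, 809 and 708 CPM without overlap. Their log2 fold changes were -2.09 and -0.99, with a DESeq2 adjusted p of 0.0517 and 0.0727, so neither passed the threshold. Other members did not move in this way: SRF itself had a log2 fold change of 0.09, CCN1 of 0.57, CCN2 of -0.72 and ACTB of -0.08, each at an unadjusted p of at least 0.221 by edgeR. Of 15 ENA/VASP and actin regulators ENAH was the only one at an unadjusted p under 0.05, and VASP and EVL, its closest relatives, had log2 fold changes of -0.08 and 0.17.

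Of 26 immediate early genes, 5 were lower and none higher at an unadjusted p under 0.05, with a median log2 fold change of -0.40. They were FOSL1, ARC, JUND, BTG2 and EGR2. BTG2, an antiproliferative gene, was at 61.7, 24.4, 98.8 and 53.96 CPM in control and 12.001, 21.9, 26.9 and 34.5 CPM in treated replicates 1 to 4, and again control replicate 2 lay among the treated calves. FOS had a log2 fold change of 1.12, FOSB of 0.80 and NR4A1 of 0.13, all above 0 and at an unadjusted p of at least 0.249 by edgeR. The list depended on the libraries more than the previous one: 8 members were lower without control replicate 2, 13 without treated replicate 4 and 4 to 6 in the other fits, and the median ran from -1.27 without treated replicate 4 to -0.11 without treated replicate 1.

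Of 20 genes of the integrated stress response, 5 were lower and none higher at an unadjusted p under 0.05, with a median of -0.19. SLC1A5 is described above. TRIB3, a pseudokinase that ATF4 induces, was at 1.600, 6.99, 2.77 and 3.37 CPM in control and 1.31, 0.387, 0.74 and 1.07 CPM in treated replicates 1 to 4, and fell by DESeq2 (log2 fold change -2.07, DESeq2 adjusted p = 0.0273), a call lost in 5 of the 8 fits, those without control replicate 2, 3 or 4 or treated replicate 2 or 3. DDIT3, the factor CHOP, was at 18.9, 12.1, 12.6 and 21.1 CPM and 5.55, 10.9, 6.61 and 6.51 CPM, with no overlap (log2 fold change -1.13, adjusted p = 0.864 by edgeR). SESN2, a stress sensor of the sestrin family, was at 1.67, 16.5, 0.877 and 2.15 CPM and 1.18, 1.16, 0.64 and 0.806 CPM, a difference set by control replicate 2: its log2 fold change was -2.49 with and -0.76 without that library. ATF4 itself had a log2 fold change of -0.20, ASNS, which makes asparagine, of 0.26 and DDIT4 of 0.53, each at an unadjusted p of at least 0.42 by edgeR. With 1 library left out, 4 to 7 members were lower, and the median was lowest, -0.995, without treated replicate 4.

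All 12 chaperones of the endoplasmic reticulum had a log2 fold change below 0, with a median of -0.68, and 4 were at an unadjusted p under 0.05. HSPA5, or BiP, the main chaperone of this compartment, was at 437, 214, 347 and 1336 CPM in control and 215, 84.2, 258 and 120.4 CPM in treated replicates 1 to 4. HSP90B1, its HSP90 counterpart, was at 190.4, 242, 363 and 1031 CPM and 200.3, 87.01, 345 and 163 CPM. Control replicate 4 stood far above every other calf in both, while control replicate 2 in HSPA5 and control replicates 1 and 2 in HSP90B1 lay within the treated range. The same library led DNAJB9 and MANF, with 97.3 and 79.2 CPM. Without control replicate 4, 1 of the 12 was at an unadjusted p under 0.05, 9 were below 0 and the median was -0.26, and the log2 fold change of HSPA5 was -0.97 in place of -1.78. The number at an unadjusted p under 0.05 was also 1 without treated replicate 2 and 2 without treated replicate 4, and 7 without control replicate 1.

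Of 13 heat shock and small heat shock genes, 3 were lower and none higher, with a median of -0.46. HSPB8, which works with BAG3 in clearing damaged filaments, was at 864, 1648, 3644 and 1525 CPM in control and 724, 505, 349.7 and 454 CPM in treated replicates 1 to 4, without overlap, and fell by DESeq2 (log2 fold change -1.92, adjusted p = 0.618 by edgeR and 0.00469 by DESeq2). The DESeq2 call was lost without control replicate 3, the highest. DNAJB1, an HSP40 cochaperone, and CRYAB, a small heat shock protein of the Z-disc, overlapped between the groups, with log2 fold changes of -1.34 and -1.13. Without treated replicate 1, 6 members were lower, and 5 without control replicate 1, but 2 without control replicate 2 or 3 or treated replicate 2 or 4. BAG3 had a log2 fold change of -0.28 (unadjusted p = 0.236 by edgeR).

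Slow fibre genes went the other way. All 8 had a log2 fold change above 0, the median was 0.98, and 4 were higher and none lower at an unadjusted p under 0.05. MYH7, the slow myosin heavy chain, was at 5500.5, 9488, 7262 and 8048 CPM in control and 10861, 37645, 13265 and 5314 CPM in treated replicates 1 to 4. ATP2A2, the slow fibre calcium pump, was at 1204, 1501, 1374 and 1517 CPM and 1244, 8977, 3942 and 1821 CPM. TNNI1, slow troponin I, was at 534, 495, 601 and 623 CPM and 819, 2839, 1376 and 351 CPM. In each gene treated replicate 2 was by far the highest calf, and treated replicate 4 was the lowest of all in MYH7 and TNNI1. The fourth, TNNC1, slow troponin C, reached 8115 CPM in the same calf. Without treated replicate 2 no slow fibre gene was at an unadjusted p under 0.05 and the median was 0.38, while 6 were without treated replicate 4. The count was 1 without control replicate 1, 1 without control replicate 2, and 2 without control replicate 3 or treated replicate 3. With all libraries, limma-voom put 0 of the 8 at an unadjusted p under 0.05, the replicate block 1, filterByExpr 2 and DESeq2 5.

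Fast fibre genes had no member at an unadjusted p under 0.05 among 11, and a median of -0.19. MYH1, a fast myosin heavy chain, was at 17534, 9710.3, 17739.8 and 13704 CPM in control and 25612, 703, 1307 and 12254 CPM in treated replicates 1 to 4, and was thus lowest in treated replicates 2 and 3, those with the most MYH7. MYH2, the heavy chain of fast oxidative fibres, was at 42947, 24680.5, 9422 and 13272 CPM and 28313, 15472, 19037 and 22931 CPM, and its groups lay over each other.

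Of 17 extracellular matrix genes 16 had a log2 fold change below 0, with a median of -0.72, and 3 were lower at an unadjusted p under 0.05. CD44, the receptor of hyaluronan, was at 21.1, 61.6, 20.5 and 16.9 CPM in control and 10.2, 3.48, 8.504 and 4.63 CPM in treated replicates 1 to 4. It fell by DESeq2 (log2 fold change -2.16, adjusted p = 0.618 by edgeR and 0.0044 by DESeq2) and kept that call in all 8 fits with 1 library left out. COL11A1, a fibrillar collagen chain, was at 0.212, 13.3, 1.35 and 1.24 CPM and 0.501, 0.143, 0.27 and 0.909 CPM, and TNC, tenascin C, at 0.988, 15.5, 1.07 and 1.44 CPM and 1.02, 0.468, 2.105 and 0.455 CPM. Both were by far highest in control replicate 2, where COL1A1, the main collagen chain, was also highest, at 2232 CPM against 107 to 377 CPM in the other 7 libraries. Without control replicate 2 the median of the list turned to 0.18, 12 of the 17 were above 0 and 1 was lower at an unadjusted p under 0.05. Between 6 and 8 were lower without control replicate 1, 3 or 4 or treated replicate 3, and 2 to 3 without the other treated libraries.

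**Figure D4:**
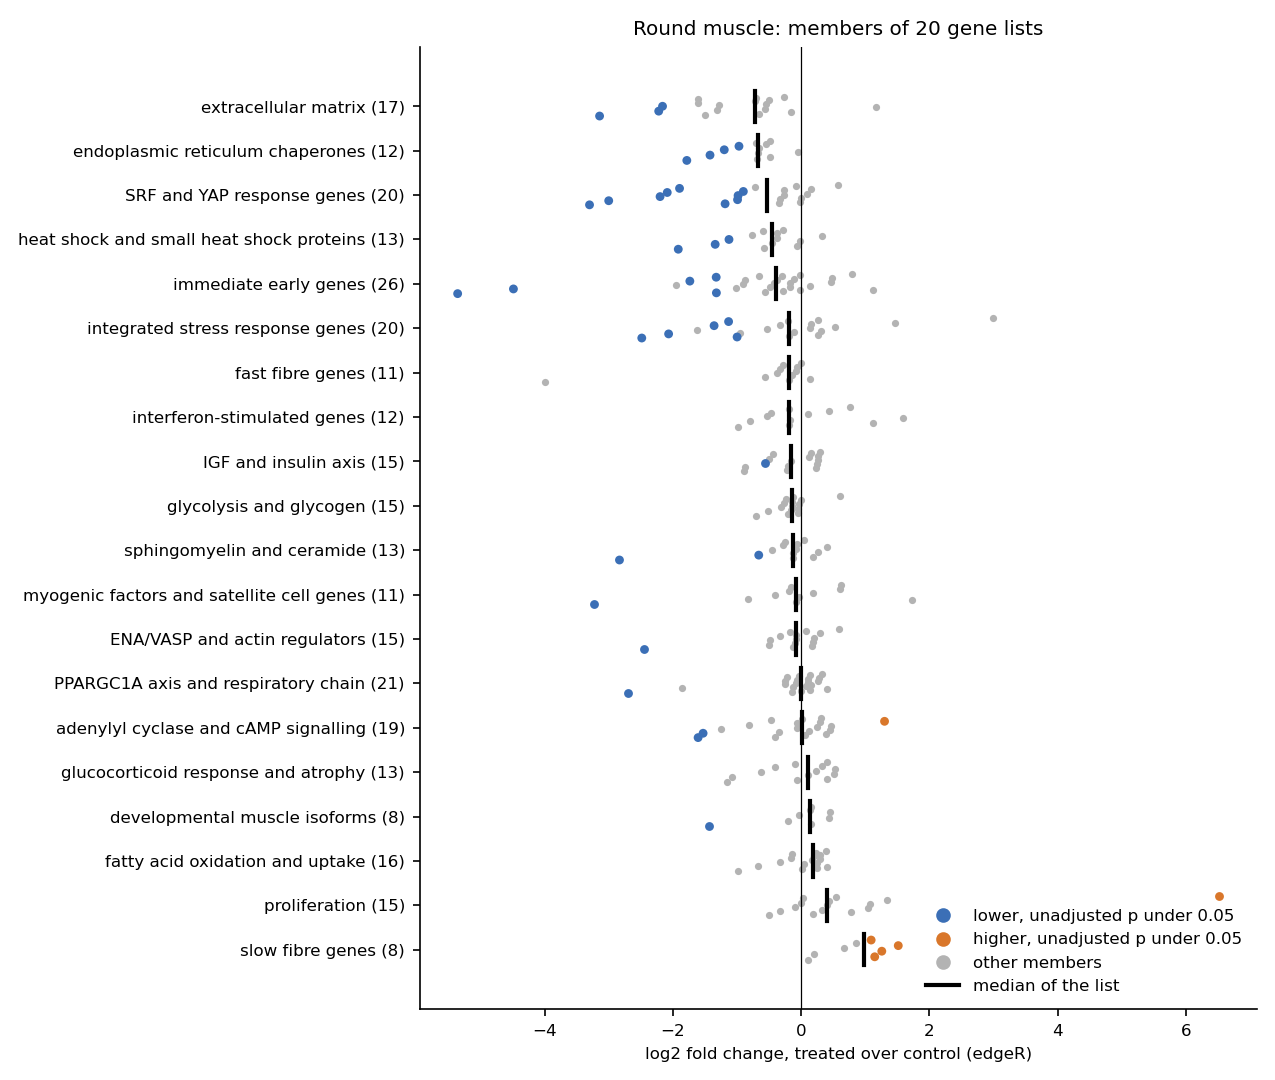
Each row is 1 of 20 gene lists, with the number of tested members in brackets; each point is the log2 fold change (treated over control, edgeR) of 1 member, blue or orange where its unadjusted p was under 0.05, and the black bar is the median. The medians of SRF and YAP targets, chaperones and extracellular matrix lie to the left of 0 and slow fibre genes to the right.

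The other lists held few such members. PPARGC1A was 1 of 21 genes of its axis and the respiratory chain, and the median of that list was -0.00341. NDUFS1 and COX4I1, subunits of complexes I and IV, had log2 fold changes of 0.07 and 0.15, and ESRRG, an ERR receptor that binds PPARGC1A, of -1.87 (unadjusted p = 0.0545 by edgeR). Fatty acid oxidation and uptake (16 genes), glycolysis and glycogen (15), glucocorticoid response and atrophy (13) and interferon-stimulated genes (12) had none at an unadjusted p under 0.05, with medians of 0.18, -0.15, 0.10 and -0.18. For CPT1B, which brings fatty acids into mitochondria, the log2 fold change was 0.29, and for CPT2 it was 0.23. HK2 and PFKM, of early glycolysis, had -0.52 and -0.24, FKBP5 and TSC22D3, which glucocorticoids induce, 0.23 and 0.51, and ISG15 and MX1 1.12 and -0.99.

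RUNX1 was the only one of 11 myogenic genes at an unadjusted p under 0.05, while MYOD1, MYOG and MYF5 had log2 fold changes of -0.83, -0.19 and -0.41. ACTC1, the cardiac actin of fetal muscle, was the only one of 8 developmental isoforms, at 425, 682, 144 and 851 CPM in control and 357, 90.9, 53.9 and 275 CPM in treated replicates 1 to 4 (log2 fold change -1.44, unadjusted p = 0.0392 by edgeR). IRS1, an adaptor of the insulin and IGF1 receptors, was 1 of 15 genes of that axis (log2 fold change -0.57, unadjusted p = 0.0399 by edgeR). Of 19 genes of cAMP signalling, ADCY6 was higher and CREB5 and CREM, of the CREB family, lower. CREB5 was at 54.8, 32.7, 38.1 and 78.2 CPM in control and 13.9, 30.5, 16.1 and 10.1 CPM in treated replicates 1 to 4, without overlap (log2 fold change -1.53, DESeq2 adjusted p = 0.0615). CREM was at 84.1, 13.2, 36.3 and 39.03 CPM and 3.48, 16.4, 16.7 and 20.002 CPM, and control replicate 2 lay within the treated range. Of 13 sphingomyelin and ceramide genes, SGMS2 and DEGS1, the desaturase that completes ceramide, were lower, DEGS1 with a log2 fold change of -0.66 (unadjusted p = 0.0206 by edgeR). CCNB2 was the only one of 15 proliferation genes at an unadjusted p under 0.05, and MKI67 and TOP2A had log2 fold changes of 0.33 and 0.55.

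In bulk muscle fewer cells of a type and less RNA per cell cannot be told apart, and markers of other cell types were therefore read in the same libraries. Of 8 tendon markers 2, TNMD and COMP, were lower at an unadjusted p under 0.05. Their summed level was 47.5, 328, 45.5 and 66.8 CPM in control and 83.9, 57.8, 88.1 and 66.3 CPM in treated replicates 1 to 4, so control replicate 2 alone was high, and the list's median log2 fold change of -1.67 was -0.03 without it, with 1 marker lower. TNMD, tenomodulin, had 4, 141, 9 and 3 counts in control and 0 in all treated libraries, at least 41.4-fold lower by the same floor. Without control replicate 2, which held 141 of the 157 control counts, the bound was 9.49-fold, and the DESeq2 call was lost without control replicate 2 or 3 or any of the treated libraries. SCX, the transcription factor of tendon cells, was at 0.4, 1.09, 0.545 and 1.22 CPM and 0.307, 0.59, 0.356 and 0.31 CPM. The part of these cells in the changes of CD44, COL11A1 and TNC was not tested. CD44 had a log2 fold change of -1.58 without control replicate 2.

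The summed markers of smooth muscle and mural cells overlapped between the groups, at 504, 1060.0, 430.1 and 579.9 CPM in control and 745, 821, 647 and 311 CPM in treated replicates 1 to 4. CNN1 was the only one of its 12 genes at an unadjusted p under 0.05. MYH11 and ACTA2, the defining myosin and actin of that cell type, had log2 fold changes of -0.54 and -0.36 (unadjusted p = 0.237 and 0.438 by edgeR). Of 8 fibroblast markers DPT was lower at an unadjusted p under 0.05 and was highest in control replicate 2. PDGFRA and DCN had log2 fold changes of 0.28 and -0.69, and the summed level was 530.3, 906, 384 and 482 CPM in control and 378, 562, 463 and 395 CPM in treated replicates 1 to 4.

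Red blood cell markers were low in all libraries, at 7.95, 1.57, 2.58 and 2.596 CPM in control and 6.11, 4.97, 13.5 and 7.36 CPM in treated replicates 1 to 4, with 5 of the 8 listed genes measured. Globin genes are among them, and the study's methods name a kit that depletes globin RNA. Their level may therefore not follow red blood cell content, which was not tested. The 2 alpha-globin genes, HBA and HBA1, were higher at an unadjusted p under 0.05, with log2 fold changes of 1.48 and 1.53, but they are near copies, so their counts cannot be told apart. No member was at that level without control replicate 2, 3 or 4 or treated replicate 3, and 1 was without treated replicate 1 or 4. Macrophage and leukocyte markers summed to 34.9, 48.2, 15.1 and 20.7 CPM in control and 29.5, 81.1, 16.1 and 15.2 CPM in treated replicates 1 to 4, with PTPRC and CD68 at log2 fold changes of 0.60 and -0.29. Adipocyte markers summed to 325, 500.2, 344 and 379.7 CPM and 368, 807, 498 and 483 CPM, highest in treated replicate 2. CIDEC, of lipid droplets, was lower at an unadjusted p under 0.05 with at most 0.355 CPM in any library, and ADIPOQ, adiponectin, was at most 1.59 CPM in any library. PECAM1 and CDH5 of the endothelium had log2 fold changes of -0.02 and 0.08, and CKM of the muscle fibre 0.21. None of these 3 was at an unadjusted p under 0.05, whereas CLDN5 of the endothelium, CD3E of T cells and TNNI1 were higher at that level.

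**Figure D5:**
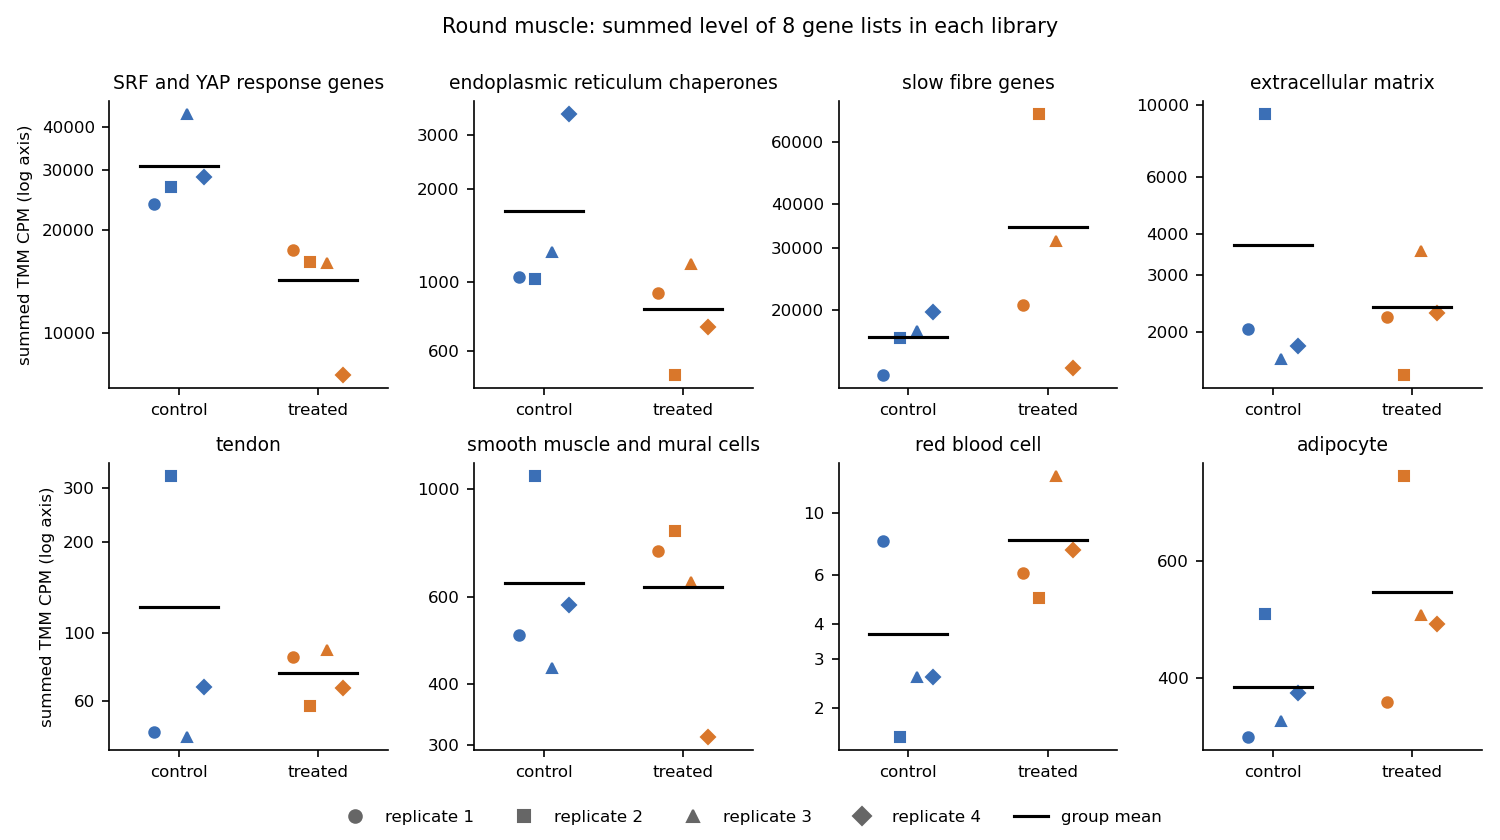
Each panel shows the summed TMM-normalized CPM of 1 gene list, on a log axis, in the 4 control (blue) and 4 treated (orange) round libraries, with the replicate number as marker shape and the group mean as a black line. Of the lists shown, that of SRF and YAP does not overlap between the groups. The ENA/VASP list and the sphingomyelin and ceramide list, not shown, do not overlap either, by narrow margins. The endoplasmic reticulum list is led by control replicate 4, the slow fibre list by treated replicate 2 and the extracellular matrix and tendon lists by control replicate 2.

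The sirloin libraries give the same genes in another muscle, where no test of the diet alone was run here. They were taken to come from the same calves, so they are not an independent repeat of the diet comparison. ENAH was at 217 ± 208 CPM (control) and 52.9 ± 14.8 CPM (treated) (SD, n = 4 each) in sirloin, and SGMS2 at 3.21 ± 0.925 CPM (control) and 1.003 ± 0.349 CPM (treated). LOC781412 was at 0.0552 ± 0.0297 CPM (control) and 2.03 ± 0.784 CPM (treated). In PPARGC1A the sirloin values were 362 ± 327 CPM (control) and 48.6 ± 17.6 CPM (treated). The sirloin means of the diets lay closer together in 3 other genes: THBS1 was at 69.6 ± 46.1 CPM (control) and 57.7 ± 57.2 CPM (treated), SLC1A5 at 16.5 ± 8.59 CPM (control) and 17.3 ± 6.36 CPM (treated) and CNN1 at 11.1 ± 8.44 CPM (control) and 9.12 ± 9.298 CPM (treated).

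The difference of the diet effects between the muscles was tested in all 16 libraries with the calf as a block. Over 22877 genes 865 (3.78%) were at an unadjusted p under 0.05 and 1 (0.00437%) passed the adjusted threshold in edgeR. The log2 difference, round minus sirloin, was -2.64 for THBS1 (SE 0.899, unadjusted p = 0.0125 by edgeR), -1.54 for SLC1A5 (SE 0.43, unadjusted p = 0.00377 by edgeR) and -4.28 for ARC (SE 0.764, unadjusted p = 0.000119 by edgeR). For ENAH it was -1.01 (SE 0.576, unadjusted p = 0.104 by edgeR) and for PPARGC1A 0.11 (SE 0.759). The genes were named by their round difference, and the same round counts enter this term. A weaker sirloin difference and a small unadjusted p can thus come from that choice alone. Of the 46 DESeq2 calls of round, 25 were at an unadjusted p under 0.05 for this term by edgeR. In 44 of the 46 the sirloin difference had the same sign as that of round. The share with the same sign over all tested genes is not reported here, and both muscles were taken to come from the same calves. The 44 is therefore a description only. None of the 46 DESeq2 calls of round passed the adjusted threshold for the difference between muscles in edgeR, the lowest adjusted p by edgeR being 0.455, for ARC. DESeq2 called 9 genes for this difference, 2 higher and 7 lower, and whether any of the 46 was among them is not reported here.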

How the data were processed

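RNA of round and sirloin muscle was sequenced; per the labels libraries were poly(A)-selected, whereas the study's methods name a kit that depletes rRNA and globin RNA, and the conflict is not settled here. The authors deposited raw read counts per gene for 34109 genes, and TPM, scaled by gene length and depth. The study's methods name HISAT2 and Bowtie2 for alignment and StringTie for quantification, and the submitters' processing notes name STAR and featureCounts with the build ARS-UCD1.2. TPM summed to 1000000 after rounding in control replicate 2 and to 999802 to 999855 in the other round libraries. The deposited tables of fold changes and p-values were not used.

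The counts were tested with edgeR 4.0.16 in R 4.3.3 (TMM factors of 0.932 to 1.09, glmQLFit, glmQLFTest, two-sided, no covariates) over genes counted at least once among the 8 round libraries, with Benjamini-Hochberg adjustment at 0.05. The standard error given is the size of the log2 fold change over the root of its F statistic. Alternatives were DESeq2 1.42.0, limma-voom (limma 3.58.1), RLE and upper-quartile factors, filterByExpr, both muscles in 1 fit, a replicate block, and leaving out each library in turn. A DESeq2 call was counted as lost also where the fit gave the gene no adjusted p, which can concern genes with few counts. The diet by muscle term was fitted with the calf as a block, equal numbers being taken as the 2 muscles of a calf. The steps were tested on simulated counts. 1 count was worth between 0.0127 and 0.0237 CPM, depending on the library, and floors of 3 counts cover counting error only. Gene IDs were matched to symbols through ARS-UCD2.0 (30762, or 90.2%), and no coordinates are given because the builds differ. Of 382 listed genes 376 were tested. No 2 libraries were alike beyond the other pairs, with correlations across genes of 0.964 to 0.989 over 28 pairs. Named genes were those called by edgeR, the 16 lower and 6 higher DESeq2 calls without overlap with the smallest edgeR p, up to 4 members of each list at an unadjusted p under 0.05 (the first 2 where there were none), up to 6 overlapping DESeq2 calls lost without 1 library, and the first 2 detected markers of each cell type; other genes were chosen after their values were seen, and some genes of the rule are not reported here. The comparison, the members and the lists were chosen with earlier results of these data known.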

Additional observations from a re-analysis of the deposited data

Results flagged for a closer look

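Single libraries stood apart from the other 3 of their group in 7 of the 74 groups examined. Chance alone would give this in about 5% of groups if values were normally distributed. That was not checked for these chosen genes, and the groups share the same libraries, so the 5% is only a rough guide. In LOC781412 they were control replicate 3, at 0.0711 CPM, and treated replicate 1, at 6.53 CPM, of which the first is 3 counts beside 1, 2 and 1 and so within counting error. In RUNX1 it was treated replicate 1, at 4.12 CPM, and in LOC104970902 treated replicate 2, at 48.7 CPM. In CCNB2 it was the low value of treated replicate 1, 0.146 CPM from 9 counts, beside 0.224 to 0.228 CPM in the other treated libraries. The summed tendon markers stood apart in control replicate 2, at 328 CPM, and the summed red blood cell markers in control replicate 1, at 7.95 CPM.

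AMBP, which codes for alpha-1-microglobulin and bikunin, was the 1 gene whose diet effect differed between the muscles by edgeR, with a log2 difference, round minus sirloin, of 8.87 (SE 0.968, adjusted p = 0.0223 by edgeR). In round muscle it had 8, 9, 0 and 0 counts in control and 14, 12, 265 and 7 counts in treated replicates 1 to 4. In sirloin it had 29, 90, 5 and 2 counts in control and 0, 0, 4 and 0 counts in treated replicates 1 to 4. Treated replicate 3 held most of the treated round counts, and without that calf the adjusted p was 0.481 by edgeR. The call was kept in 2 of the 8 fits with 1 calf left out, those without control replicate 1 or treated replicate 4. Within round muscle its log2 fold change was 3.80 (SE 1.32, adjusted p = 0.864 by edgeR).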

How the results depend on the processing

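In place of the 4 genes called by edgeR, DESeq2 called 46, limma-voom 1 (855 genes at an unadjusted p under 0.05) and the fit with the replicate block 2 (795 genes), while RLE factors, upper-quartile factors and filterByExpr gave 4 each and both muscles in 1 fit gave 3. In that last fit LOC781412 kept its call (adjusted p = 0.0011 by edgeR), ARC and SGMS2 came to pass, and THBS1 (0.361), ENAH (0.316) and FOSL1 (0.0521) did not pass. Replicate numbers gave no pairing of control with treated calves: correlations of the deviations of control and treated calves with the same number ran from -0.0355 to 0.310 over 12283 genes, those of other numbers from -0.460 to 0.467, and 2 of the 4 control calves correlated best with their own number. Leaving out 1 library gave between 0 and 3 genes by edgeR and between 26 and 72 by DESeq2. The number of genes without overlap ran from 623 to 1240 with 1 library left out, where 3 values are set against 4. At an unadjusted p under 0.05, filterByExpr left 625 of 14723 genes in place of 956 of 21677, since fewer genes were tested. For the diet effect differing between the muscles, edgeR called 1 gene, 0 with no replicate block, 9 with DESeq2 and 0 to 2 with 1 calf left out. The cause of the differences between tools was not tested. Among the named genes 1150 values under these settings kept direction and side of the threshold, 32 came to pass it, 30 no longer passed it and 13 moved beyond the spread between replicates. Most of these genes were not called in the main fit, so most of the 1150 values had no call to lose. Only the 4 genes called by edgeR could lose one. Of 15 other settings each, THBS1 was called in 10, LOC781412 in 9, FOSL1 in 6 and ENAH in 5. No named gene past the threshold changed direction, but the medians of 15 of the 29 lists turned sign in at least 1 fit with a library left out, such as extracellular matrix (from -0.72 to 0.18 without control replicate 2), interferon-stimulated genes (from -0.18 to 0.757 without control replicate 1) and macrophage markers (from 0.31 to -0.58 without treated replicate 2). Depth limits the low genes: CCNB2, TNMD and LOC112446708 rest on 47, 157 and 92 counts in the group that has any.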

Other observations

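The 14 DESeq2 calls that the text has not yet described were 13 lower and 1 higher in treated calves, and were chosen here after their values were seen. The lower ones had log2 fold changes between -5.61 and -0.89. GNPTAB, which tags enzymes for lysosomes, was at 38.1, 34.4, 56.3 and 39.4 CPM in control and 20.9, 13.9, 22.4 and 18.4 CPM in treated replicates 1 to 4, without overlap. IPMK, an inositol phosphate kinase, was at 5.65, 4.63, 54.2 and 18.3 CPM and 1.89, 3.83, 4.18 and 2.31 CPM, and GEM, a small GTPase that restrains calcium channels, at 7.91, 10.2, 8.08 and 12.7 CPM and 1.76, 3.68, 5.32 and 2.03 CPM. DLK2, a relative of the Notch ligands, was at 1.88, 3.81, 6.898 and 3.58 CPM and 1.54, 0.713, 0.526 and 0.289 CPM. None of these 4 genes had an overlap, and the DESeq2 adjusted p lay between 0.00655 and 0.0268. The DESeq2 call of DLK2 was lost without control replicate 3, that of IPMK without control replicate 3, control replicate 4 or treated replicate 1, that of GNPTAB in 4 of the 8 fits and that of GEM in 6.

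BMP2K, a kinase induced by BMP2, had a log2 fold change of -1.77, SERTAD1, a regulator of CDK4, of -1.21, LRRN3 of -2.27 and CCNYL1 of -0.89, and DESeq2 called CCNYL1 in none of the 8 fits with 1 library left out. LOC101904275, a pseudogene, had 7, 281, 4 and 417 counts in control and 4, 4, 6 and 4 counts in treated replicates 1 to 4, so only 2 control calves were high. LOC789607, also a pseudogene, had 12, 41, 1 and 19 counts in control and 0, 0, 1 and 0 counts in treated replicates 1 to 4. The mitochondrial tRNA KEH36_t05 was at 40.2, 45.96, 24.6 and 40.4 CPM in control and 18.4, 16.2, 18.8 and 18.7 CPM in treated replicates 1 to 4 (log2 fold change -1.07, DESeq2 adjusted p = 0.014). SPACDR was the higher one, at 1.13, 0.685, 1.07 and 0.665 CPM in control and 2.43, 3.52, 1.59 and 2.77 CPM in treated replicates 1 to 4. These calls also depended on single libraries. With 1 library left out, DESeq2 called KEH36_t05 in 1 of the 8 fits and SERTAD1 in 4. BMP2K, LRRN3, LOC101904275, LOC789607 and SPACDR were each called in 2 of the 8.

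Interferon-stimulated genes were uneven among the calves of each diet. Their summed level was 199, 73.7, 48.9 and 42.6 CPM in control and 79.2, 752, 56.5 and 54.9 CPM in treated replicates 1 to 4, highest in treated replicate 2, which also had the highest summed macrophage, adipocyte and slow fibre levels. Without that library the median log2 fold change of the list was -0.67 in place of -0.18, with all 12 below 0. Without control replicate 1, the highest control calf, it was 0.757, with 10 of the 12 above 0 and 2 higher at an unadjusted p under 0.05, and without treated replicate 4 it was 0.0941.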
